A study of Mus musculus with 8 samples.

Results

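The genes described here are 10 chemokine and cytokine genes that epithelial tumour cells can express: Cxcl1, Cxcl2, Cxcl5, Ccl2, Ccl20, Il1a, Csf1, Csf2, Csf3 and Lif. They were taken by symbol from tables of 39179 genes, and each of the 10 symbols matched 1 row. RNA sequencing of total RNA was carried out on mouse pancreatic ductal adenocarcinoma cells of the iKPC model. There were 4 cell lines, numbered 1 to 4, each with a library of cells overexpressing WT-USP21 and a library of cells overexpressing ED-USP21, so that the 8 libraries formed 2 groups of 4. USP21 is a deubiquitinating enzyme, and the labels do not spell out ED.

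The genotype labels of the WT-USP21 and ED-USP21 libraries differ only in the construct, WT-USP21 or ED-USP21. All 8 libraries share the entries ROSA_rtTA, the rtTA activator at the ROSA locus, and p48-Cre, a Cre recombinase under the pancreatic p48 promoter. Lines 1 and 2 are labelled FVB/C57Bl6 and lines 3 and 4 C57BL/6. The libraries are of cell lines in culture, and tumour tissue with its stroma was not measured. Cells carrying neither construct were not analysed here, and the labels do not say whether doxycycline was in the medium.

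Chemokines and colony-stimulating factors released by tumour cells set which leukocytes enter a pancreatic tumour and how long they live there. The Cxcl genes among the 10 encode chemokines with an ELR motif, which call neutrophils through the receptor CXCR2, whereas CCL2 calls monocytes through CCR2 and CCL20 calls CCR6-bearing lymphocytes and dendritic cells. IL-1α and NF-κB signalling induce many of these genes, and the short life of several of their transcripts is set by AU-rich elements in the 3′ UTR. In pancreatic cancer GM-CSF, the product of Csf2, is known to act on myeloid cells, and LIF is known to act on tumour cells through STAT3.

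The gene counts ran from 72828184 to 107551210 per library. Levels are given in CPM, gene counts relative to the library total after TMM scaling. Reads assigned to Usp21 were lower in the WT-USP21 libraries, at 147 to 944 CPM, than in the ED-USP21 libraries, at 1658 to 3132 CPM. Relative to ED-USP21, the mean log2 difference of Usp21 was -2.10 ± 0.94 (SD over the 4 lines; exact 2-sided permutation test, p = 0.0286, the smallest that 4 against 4 allows). That test does not use the pairing by line, and edgeR with the line as a block did not call Usp21 (log2 -2.07, SE 0.35, adjusted p = 0.205). Whether reads of the introduced constructs align to the mouse gene is not known, so these values may not be the total Usp21 RNA. The part of this difference in the results was not tested. Of 10 ductal epithelial markers, 8 had at least 1 CPM in every library, among them Krt19 at 960 to 2588 CPM and Cdh1 at 289 to 544 CPM. Epcam (0.0645 to 5.35 CPM) and Cldn4 (at most 0.272 CPM) were low. Of 19 immune cell markers, 6 had no read in any library, among them Adgre1 and Cd4, and the pan-leukocyte marker Ptprc lay between 0.0435 and 0.279 CPM. The summed immune markers ran from 50.6 to 76.2 CPM in WT-USP21 libraries and from 41.6 to 115 CPM in ED-USP21 libraries, and most of that sum was Cd14 (36.4 to 98.9 CPM) and Cd68 (4.86 to 15.5 CPM). Dcn, Lum and Pdpn of 10 fibroblast markers and Emcn of 8 endothelial markers had no read. The summed fibroblast markers ran from 7.46 to 19.2 CPM with WT-USP21 and from 5.77 to 8.77 CPM with ED-USP21, and the endothelial ones from 2.43 to 7.61 and from 0.674 to 1.01 CPM in the same groups. The fibroblast maximum was 1 library, WT-USP21 of line 4, and the next WT-USP21 sum was 10.2 CPM. With WT-USP21 most of the endothelial sum was Kdr in lines 2 to 4 (5.11 to 7.07 CPM) and Cdh5 in line 1 (2.23 CPM). The endothelial marker Pecam1 was at most 0.147 CPM in any library.

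Levels of the 10 genes differed widely. Per length, as mean CPM per kb of merged exons (GENCODE M21) over the 4 libraries of a group, Cxcl5 was the most abundant, at 81.9 with WT-USP21 and 94.2 with ED-USP21. Cxcl1 followed at 13.9 and 14.4, Csf1 at 10.8 and 12.4, Ccl20 at 8.70 and 12.5, Lif at 5.92 and 5.78 and Csf2 at 5.58 and 5.93, in the same group order. Il1a came next at 1.14 with WT-USP21 and 1.90 with ED-USP21. Csf3 (0.762 and 0.484), Ccl2 (0.372 and 1.48) and Cxcl2 (0.126 and 0.167) were near the bottom in the same groups. With WT-USP21 the gap between neighbours in this order was larger than the SD of both only from Csf2 to Il1a and from Ccl2 to Cxcl2, and with ED-USP21 only from Lif to Il1a. Ccl2 stood above Csf3 with ED-USP21 but below it with WT-USP21. Because the libraries are bulk samples, fewer cells expressing a gene and less of its RNA per cell cannot be told apart.

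**Figure D1:**
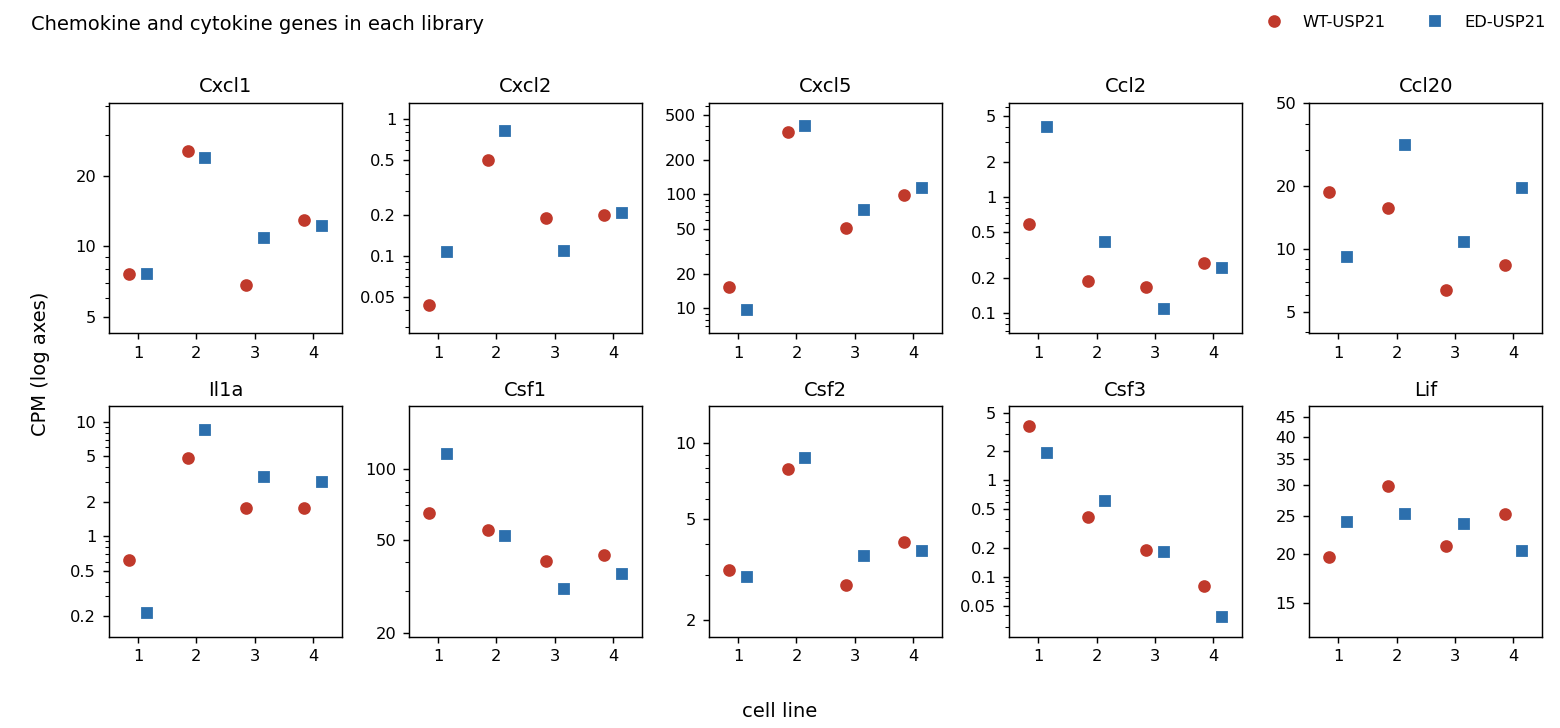
Levels of the 10 chemokine and cytokine genes in each library, in CPM on log axes, by cell line, with WT-USP21 as red circles left of ED-USP21 as blue squares. Both line 1 libraries lie above the other 6 for Ccl2, Csf1 and Csf3 and below them for Cxcl2, Cxcl5 and Il1a.

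Promoter sequences are shown for Ccl20, Il1a and Csf1, the 3 genes with an entry whose construct difference was tested as different between line 1 and the other lines. They are RefSeq sequences of build GRCm38.p6, from 250 bases before to 50 after the start of the gene, 5′ to 3′ on the gene's strand. Capitals mark the match to the NF-κB consensus in Ccl20 and Csf1 and to the AP-1 motif TGANTCA in Il1a.
Ccl20, chr1:83116516-83116815, plus strand: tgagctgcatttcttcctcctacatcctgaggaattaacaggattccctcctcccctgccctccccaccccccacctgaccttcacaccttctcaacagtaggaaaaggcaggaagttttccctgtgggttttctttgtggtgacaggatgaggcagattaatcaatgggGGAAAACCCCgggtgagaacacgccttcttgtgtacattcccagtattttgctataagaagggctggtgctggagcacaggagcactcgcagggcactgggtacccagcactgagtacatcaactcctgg
Il1a, chr2:129309923-129310222, minus strand: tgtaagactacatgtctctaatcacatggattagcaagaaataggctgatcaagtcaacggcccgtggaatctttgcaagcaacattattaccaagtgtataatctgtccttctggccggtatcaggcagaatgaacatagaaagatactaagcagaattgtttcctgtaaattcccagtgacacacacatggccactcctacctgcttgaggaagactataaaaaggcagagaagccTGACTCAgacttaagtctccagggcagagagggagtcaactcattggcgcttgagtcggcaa
Csf1, chr3:107760420-107760719, minus strand: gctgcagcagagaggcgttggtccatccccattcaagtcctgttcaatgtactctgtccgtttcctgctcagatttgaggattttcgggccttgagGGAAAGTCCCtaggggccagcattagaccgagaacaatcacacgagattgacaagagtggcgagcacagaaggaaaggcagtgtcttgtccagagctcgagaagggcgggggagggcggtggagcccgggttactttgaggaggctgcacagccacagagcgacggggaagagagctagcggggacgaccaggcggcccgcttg
The NF-κB match lay at -80 to -71 from the start in Ccl20 and at -154 to -145 in Csf1, both on the strand opposite to the gene, and the AP-1 match at -12 to -6 in Il1a. Searched on both strands, the NF-κB consensus was present in 5 of the 7 genes with a promoter entry (Cxcl1, Cxcl2, Ccl20, Csf1 and Lif), against 8.46% of 32851 promoters of the same length. TGANTCA was present in 2 of the 7 (Il1a and Lif), against 7.81% of promoters. In Cxcl1, from -71, and in Cxcl2, from -97, the match was the same stretch GGGAATTTCC, which also matched on the other strand 1 base further on. Cxcl5, Ccl2 and Csf3 are not in the promoter table. A match of letters is a description and shows no binding.

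The 3′ UTRs of the same genes were searched for the AU-rich nonamer TTATTTATT, since such elements mark unstable cytokine transcripts. It was present in 4 of the 10 genes, against 7.66% of 20804 genes in GENCODE M21, a background not matched for UTR length. The UTRs of these 4 had 592 (Cxcl1), 1494 (Cxcl2), 317 (Csf2) and 3180 (Lif) bases, against a median of 967 over all genes. One window of 29 bases (GRCm38, 5′ to 3′ on the gene's strand) is given for each, with the nonamers in capitals.
Cxcl1, chr5:90892615-90892643, plus strand: atttatgtatTTATTTATTccacaaagtg
Cxcl2, chr5:90905316-90905344, plus strand: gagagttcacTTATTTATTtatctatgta
Csf2, chr11:54247329-54247357, minus strand: ttttaaatatTTATTTATTTATTTATTta
Lif, chr11:4272039-4272067, plus strand: aaaggggcctTTATTTATTatttaaaact
In the Csf2 window the nonamers overlap, and the UTR of Csf2 held 4 of them in 317 bases, as many as that of Cxcl2 in 1494 bases. The shorter ATTTA pentamer was denser in all 10 genes than the median UTR, which had 1.26 per kb, with 28.4 per kb in Csf2 and 11.8 per kb in Cxcl1 at the upper end and 1.89 per kb in Csf1 at the lower.

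Among the neutrophil chemokines, Cxcl5 had the highest mean level per length and varied widely between lines. Its level in WT-USP21 cells of lines 1 to 4 was 15.6, 351, 51.0 and 98.8 CPM, against 9.75, 398, 72.8 and 114 CPM in ED-USP21 cells of the same lines. The constructs overlapped and the lines did not: line 2 was highest and line 1 lowest under both constructs. Within lines the log2 difference was 0.67 in line 1 and -0.18, -0.51 and -0.20 in lines 2 to 4, so that line 1 was the single line with more Cxcl5 under WT-USP21.

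Cxcl1, a second CXCR2 ligand, had 7.64, 25.8, 6.82 and 12.9 CPM with WT-USP21 in lines 1 to 4, against 7.62, 24, 10.8 and 12.3 CPM with ED-USP21. Line 2 was again highest, and the constructs lay within 0.10 log2 units of each other in lines 1, 2 and 4. Line 3 was the exception, at a log2 difference of -0.67. Cxcl2 was near the limit of detection, with 4, 51, 18 and 17 reads in WT-USP21 libraries, against 11, 61, 10 and 16 reads in ED-USP21 libraries. In line 1 its level with WT-USP21 was 0.410 times that with ED-USP21, with an exact 95% interval of 0.0953 to 1.39 that covers counting error only, so no difference was detectable there at this depth. In line 2 the ratio was 0.614 and the interval, 0.415 to 0.906, left out 1, while in lines 3 and 4 the intervals (0.769 to 4.26 and 0.455 to 2.03) held 1. Cxcl1, Cxcl2 and Cxcl3 are close copies of each other, and how reads shared among them were counted is uncertain.

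Ccl20 divided the lines by the direction of the construct difference. Its level was 18.9, 15.7, 6.35 and 8.43 CPM in WT-USP21 cells of lines 1 to 4, against 9.22, 31.4, 10.9 and 19.6 CPM in ED-USP21 cells. In line 1 the WT-USP21 library had 2.05 times the level of the ED-USP21 library, and in lines 2, 3 and 4 it had 0.501, 0.584 and 0.430 times that level. Each of these 4 ratios had a counting interval that left out 1, and the smallest gap was in line 3 (0.527 to 0.647).

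Il1a, the gene of the alarmin IL-1α, followed the same division at a lower level. It had 57, 490, 167 and 152 reads in WT-USP21 libraries of lines 1 to 4, against 22, 632, 307 and 232 reads in ED-USP21 libraries. In CPM this was 0.619, 4.86, 1.75 and 1.76 with WT-USP21, against 0.212, 8.53, 3.30 and 2.99 with ED-USP21. Both line 1 libraries were below all others. In line 1 the WT-USP21 level was 2.92 times the ED-USP21 level (counting interval 1.76 to 5.02), while the log2 difference was -0.81, -0.91 and -0.75 in lines 2 to 4.

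Ccl2 was a gene of few reads everywhere but in ED-USP21 cells of line 1. It had 54, 19, 16 and 23 reads in WT-USP21 libraries of lines 1 to 4, against 420, 30, 10 and 19 reads in ED-USP21 libraries. The level with WT-USP21 in line 1 was 0.145 times that with ED-USP21 (counting interval 0.107 to 0.193), and in line 2 it was 0.465 times (0.248 to 0.855). In lines 3 and 4 the counting intervals of the ratio held 1 (0.666 to 3.85 and 0.569 to 2.12). Outside line 1, no library had more than 30 reads of Ccl2.

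Among the colony-stimulating factors, Csf1, which keeps macrophages alive through CSF1R, was the most abundant. Its level was 65.1, 55.1, 40.3 and 43 CPM with WT-USP21 in lines 1 to 4, against 116, 51.9, 30.8 and 35.8 CPM with ED-USP21. The ED-USP21 library of line 1 stood highest. The log2 difference was -0.83 in line 1 and 0.09, 0.39 and 0.26 in lines 2 to 4, the reverse of the division seen for Ccl20 and Il1a.

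Csf2, the GM-CSF gene, had 3.16, 7.89, 2.75 and 4.05 CPM with WT-USP21, against 2.95, 8.74, 3.57 and 3.73 CPM with ED-USP21. Line 2 was highest under both constructs, as for Cxcl1. Csf3, which encodes the granulocyte factor G-CSF, had 333, 42, 18 and 7 reads with WT-USP21 in lines 1 to 4, against 198, 45, 17 and 3 reads with ED-USP21. Line 1 held most of the Csf3 reads in both groups, and line 4 was near 0. In line 4 the ratio of the levels, 2.11, had a counting interval of 0.481 to 12.6, and in line 1 the ratio was 1.90 (1.59 to 2.27). Lif, a cytokine of the IL-6 family, was the most even of the 10 in level, at 19.6, 29.8, 21.0 and 25.4 CPM with WT-USP21 and 24.1, 25.4, 23.8 and 20.3 CPM with ED-USP21. The Lif groups overlapped, and its log2 difference stayed between -0.29 and 0.32.

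**Figure D2:**
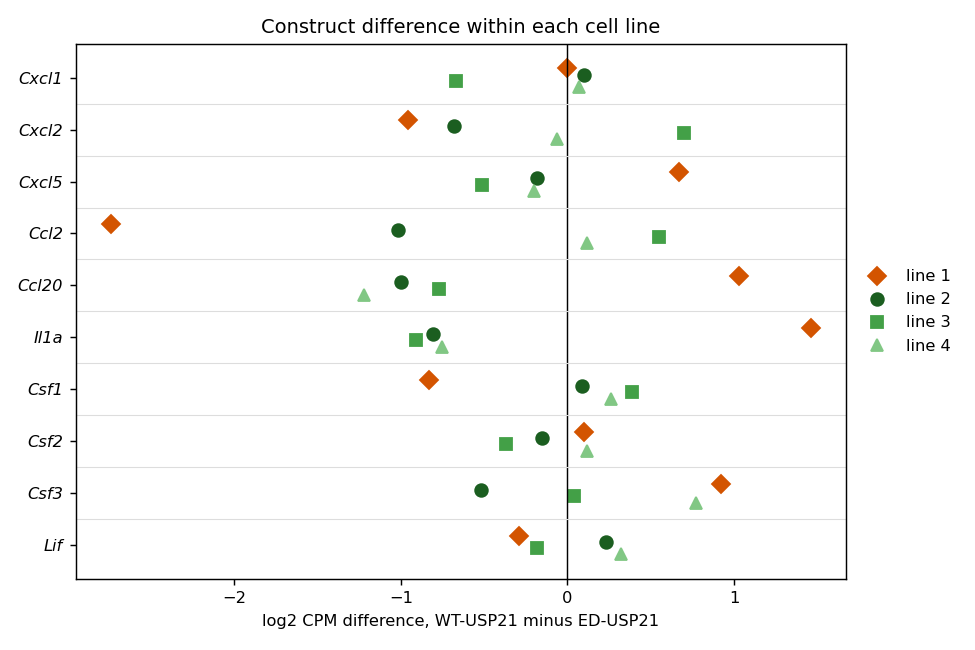
Log2 difference of CPM, WT-USP21 minus ED-USP21, within each of the 4 lines for the 10 genes, with 1 library per construct and line. Line 1 lies on the opposite side of 0 from lines 2 to 4 for Cxcl5, Ccl20, Il1a and Csf1.

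Differences of at least 2-fold within a line, counted from log2 CPM with its prior count of 2, were few. In line 1 the WT-USP21 level was at least 2-fold above the ED-USP21 level for 2 of the 10 genes, Ccl20 and Il1a (6.06% of all genes), and at least 2-fold below it for 1, Ccl2 (3.29%). In line 2 the counts were 0 above (3.31% of all genes) and 1 below, Ccl2 (4.92%). Line 3 had 0 above (5.01%) and 0 below (2.20%), and line 4 had 0 above (5.27%) and 1 below, Ccl20 (5.34%). Without the prior count, 2-fold was also passed by Cxcl2 in line 1 (ratio 0.410, on 4 WT-USP21 and 11 ED-USP21 reads). The same held for Csf3 in line 4 (ratio 2.11, on 7 WT-USP21 and 3 ED-USP21 reads). With 1 library per construct and line, all of these are single differences with no test.

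Over all 4 lines, the constructs gave no call among the 10 genes. With the lines pooled, edgeR's quasi-likelihood test with Benjamini-Hochberg adjustment called 0 of the 10, against 0% of the 16192 genes tested. None of the 10 genes had an unadjusted p under 0.05, as 2.43% of all genes did, and DESeq2 called 0 as well, with no adjusted p for Ccl2. With the line as a block the same test called 0 of the 10, against 0.0247% of all genes. Again none of the 10 reached an unadjusted p of 0.05 (8.28% of all genes did) and DESeq2 called 0. The median log2 difference of the 10 was -0.20 pooled and -0.10 within lines, against -0.00 for all genes in both. No gene of the 10 had the same sign in all 4 lines, against 9.18% of all genes higher and 7.73% lower with WT-USP21 in 4 of 4. These p-values measure the spread between 4 lines from 1 culture each as far as the labels tell.

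Without line 1, a comparison chosen after seeing the data, Ccl20 and Il1a fell with WT-USP21. Over all 4 lines, with the line as a block, neither was called (edgeR adjusted p = 0.809 and 0.889). In lines 2 to 4, with the line as a block, Ccl20 with WT-USP21 was 0.502 times its ED-USP21 level (log2 -0.99, SE 0.10, edgeR adjusted p = 0.00891). Il1a was at 0.565 times (log2 -0.82, SE 0.14, adjusted p = 0.0292). Both were lower in 3 of 3 lines. These 2 of 10 compare with 4.57% of the 16326 genes tested, 2.06% that fell and 2.51% that rose. Cxcl5 also lay lower in 3 of 3 lines but missed the threshold (log2 -0.29, SE 0.08, adjusted p = 0.105), and DESeq2 called it (adjusted p = 0.0144). Csf1 lay higher in 3 of 3 lines, at a log2 difference of 0.25 (SE 0.08, adjusted p = 0.139). Leaving out line 2 as well ended both calls (Ccl20 adjusted p = 0.101, Il1a adjusted p = 0.266) and leaving out line 4 ended that of Il1a (adjusted p = 0.0776), with log2 differences of -0.99 for Ccl20 without line 2 and -0.82 and -0.85 for Il1a. Without the block neither was called (adjusted p = 0.352 and 0.622). Some cell type markers were called in the same fit. Of 4 immune markers tested 1 was lower with WT-USP21, Cd14 (log2 -0.62). Of 9 ductal markers 2 were lower, Krt19 (log2 -0.58) and Muc1 (log2 -0.57), and the median log2 of the 9 was -0.11. Of 2 endothelial markers 1 was higher, Kdr (log2 3.90), and of 5 fibroblast markers 0 were called. The part of these markers in the result was not tested.

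The construct difference in line 1 was then tested against that in lines 2 to 4, as an interaction with the line as a block. It differed for 4 of the 10 genes, against 6.27% of all genes tested, 3.19% more positive and 3.08% more negative in line 1. It was more positive in line 1 for Il1a (log2 2.37, SE 0.37, edgeR adjusted p = 0.0214), Ccl20 (log2 2.03, SE 0.20, adjusted p = 0.0135) and Cxcl5 (log2 0.97, SE 0.17, adjusted p = 0.0276). It was more negative in line 1 for Csf1 (log2 -1.07, SE 0.15, adjusted p = 0.0182). For Il1a the construct ratio in line 1 was thus 5.17 times that in the other lines, and for Ccl20 4.10 times. Ccl2 had the largest difference in size but not past the threshold (log2 -2.61, SE 0.76, adjusted p = 0.106), and it passed when genes of low counts were kept (log2 -2.62, adjusted p = 0.0339). Cxcl5, Ccl20 and Il1a were the 3 of 10 genes that lay higher with WT-USP21 in line 1 and lower in each of lines 2 to 4, a pattern of 12.6% of all genes. Csf1 was the 1 with the reverse, a pattern of 10.6%. With line 2 left out none of the 4 calls stood: the log2 values were 2.38 for Il1a, 2.03 for Ccl20, 1.03 for Cxcl5 and -1.15 for Csf1, with adjusted p of 0.119, 0.0682, 0.0872 and 0.0682. Line 1 is a single line, which the test assumes to vary like the others.

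Other values moved with this division. The gap in reads assigned to Usp21 was itself larger in line 1 (interaction log2 -1.87, SE 0.13, edgeR adjusted p = 0.0106), with 147 CPM in the WT-USP21 and 1658 CPM in the ED-USP21 library, with the same doubt about reads of the constructs. Of the 9 ductal markers tested, 4 had a more positive difference in line 1 (3.19% of all genes) and 0 a more negative one (3.08%). These were Muc1 (log2 2.23), Cdh1 (log2 1.22), Krt19 (log2 1.0) and Krt7 (log2 0.63), of which Muc1 and Krt7 were chosen after their values were seen. Muc1 had 168 CPM with WT-USP21 and 53.3 CPM with ED-USP21 in line 1. The summed ductal markers ran from 7801 to 13493 CPM in WT-USP21 and from 8351 to 11245 CPM in ED-USP21 libraries. Of the 4 immune markers tested, 1 was called, Cd14, with a more positive difference in line 1 (log2 0.91, SE 0.13, edgeR adjusted p = 0.0182). Cd14 had 44.2, 66.1, 56.7 and 42.0 CPM with WT-USP21 in lines 1 to 4, against 36.4, 98.9, 84.2 and 69.8 CPM with ED-USP21. The part of these differences in the chemokine results was not tested.

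**Figure D3:**
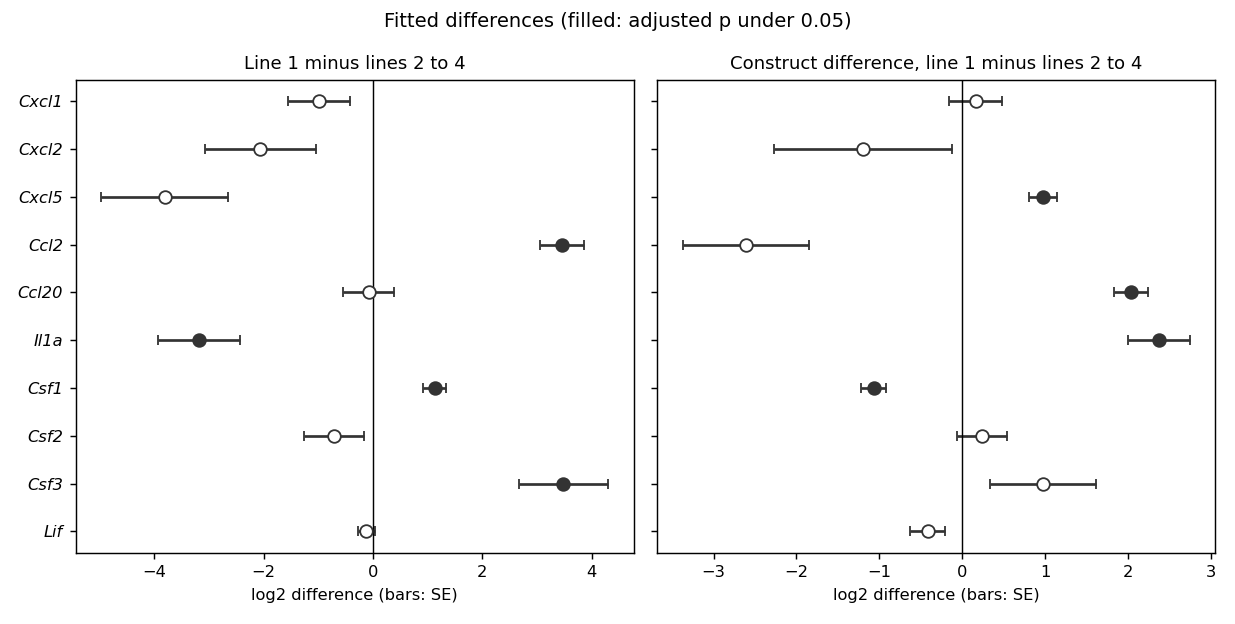
Fitted log2 differences of the 10 genes with bars for the SE, on the left line 1 minus lines 2 to 4 and on the right the construct difference in line 1 minus that in lines 2 to 4, with filled points for an edgeR adjusted p under 0.05. Il1a and Ccl20 have the most positive construct difference in line 1 relative to lines 2 to 4, at 2.37 and 2.03, and Ccl2 and Csf3 the most positive line 1 level, at 3.46 and 3.48.

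Levels of Csf3, Ccl2, Csf1 and Il1a differed between line 1 and the other lines. With the 2 libraries of a line summed, line 1 was set against lines 2 to 4, so that 1 sum stood against 3. Csf3 was 11.1 times as high in line 1 (log2 3.48, SE 0.82, edgeR adjusted p = 0.0243) and Ccl2 11.0 times (log2 3.46, SE 0.40, adjusted p = 0.00224). Csf1 was 2.19 times as high (log2 1.13, SE 0.21, adjusted p = 0.0113), and Il1a was 9.08-fold lower (log2 -3.18, SE 0.75, adjusted p = 0.0242). These 4 of 10 stand beside 31.6% of 19125 genes called in this comparison, 18.6% higher and 13.0% lower, so the share among the 10 was near the background. Cell type markers were called in the same comparison. Of 10 ductal markers 3 were higher in line 1, Epcam (log2 4.68), Krt19 (log2 0.79) and Krt8 (log2 0.74), and 2 lower, Sox9 (log2 -1.07) and Muc1 (log2 -0.59). Muc1 was lower in line 1 only with ED-USP21 (53.3 CPM against 193 to 211). With WT-USP21 line 1 had the highest Muc1 level (168 CPM against 116 to 146). Of 8 immune markers tested 2 were lower, Cd68 (log2 -1.17) and Cd14 (log2 -0.74), and of 6 endothelial markers Cdh5 was higher (log2 2.58) and Kdr lower (log2 -6.81, on 4 WT-USP21 reads and 2 ED-USP21 reads in line 1, against 28 to 674 reads in the other 6 libraries). The summed ductal markers ran from 11245 to 13493 CPM in line 1 and from 7801 to 10308 CPM in lines 2 to 4, and the immune ones from 41.6 to 50.6 and from 52.4 to 115 CPM in the same order. The part of these markers in the result was not tested.

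Cxcl5 lay lower in line 1 by the largest margin of the 10 (log2 -3.81, SE 1.16, adjusted p = 0.0525), just outside the threshold, and passed it with DESeq2 (adjusted p = 0.0406). With lines 2, 3 and 4 left out in turn, its log2 value was -2.71, -4.22 and -4.09. Cxcl2 (log2 -2.06), Cxcl1 (log2 -0.99) and Csf2 (log2 -0.71) were not called with all lines kept. Without line 3 Cxcl1 was at log2 -1.27 and Cxcl2 at -2.42. Ccl20 and Lif had log2 values of -0.08 and -0.12. Both line 1 libraries lay above the other 6 for Ccl2, Csf1 and Csf3, a pattern of 26.0% of all genes, and below them for Cxcl2, Cxcl5 and Il1a, a pattern of 24.3%.

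The line 1 differences were also read in each construct alone, with 1 library of line 1 against those of lines 2 to 4. Of the genes below, the interaction test, which compares the constructs, called Il1a, Csf1 and Cxcl5. With the low-count filter on it did not call Csf3 or Ccl2. In ED-USP21 libraries alone the log2 values were 4.03 for Ccl2, 1.57 for Csf1, -4.51 for Il1a, -4.30 for Cxcl5 and 2.81 for Csf3. In WT-USP21 libraries alone Csf3 was at log2 3.96, Ccl2 at 1.5, Csf1 at 0.50 and Il1a at -2.17.

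Many receptors of the 10 proteins had few reads in these cells. Of 17 receptor genes, 5 had no read in any library and 9 had at most 10 reads in every library. Of the 6 that passed the filter on low counts, edgeR called 0 within the 4 lines and DESeq2 called 1. Before adjustment 1 of the 6 had an edgeR p under 0.05, against 8.28% of all genes. Lifr, the LIF receptor, had 12.3, 13.7, 16.4 and 13.4 CPM with WT-USP21 in lines 1 to 4, against 4.24, 7.88, 8.99 and 5.97 CPM with ED-USP21. The WT-USP21 level of Lifr exceeded the ED-USP21 level in each of the 4 lines, a pattern of 9.18% of all genes, while its ligand Lif differed little. Within the 4 lines edgeR did not call Lifr (log2 1.09, SE 0.15, adjusted p = 0.127). Over lines 2 to 4 Lifr rose by a log2 value of 0.94 (SE 0.10, edgeR adjusted p = 0.0101), 1 of the 6 receptors tested (2.51% of all genes rose). Il6st, the shared signalling chain gp130, lay between 74.5 and 104 CPM and was not called.

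Csf2ra, the ligand-binding chain of the GM-CSF receptor, was one of 2 receptors, of 8 tested, called in line 1 against lines 2 to 4, both lower, against 13.0% of all genes lower and 31.6% called. It had 0 reads in both line 1 libraries, of 200932195 gene counts, and 2033 reads in lines 2 to 4, with 251 to 476 per library. Against a floor of 3 reads over both line 1 libraries, 0.0153 CPM, Csf2ra was at least 252-fold lower in line 1 than the 3.86 CPM of lines 2 to 4. Its ligand Csf2 was expressed in line 1 at 3.16 CPM with WT-USP21 and 2.95 CPM with ED-USP21. Il1rap, the accessory chain of the IL-1 receptor, was also lower in line 1 (log2 -1.69, SE 0.30, edgeR adjusted p = 0.00936), as was Il1a.

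**Figure D4:**
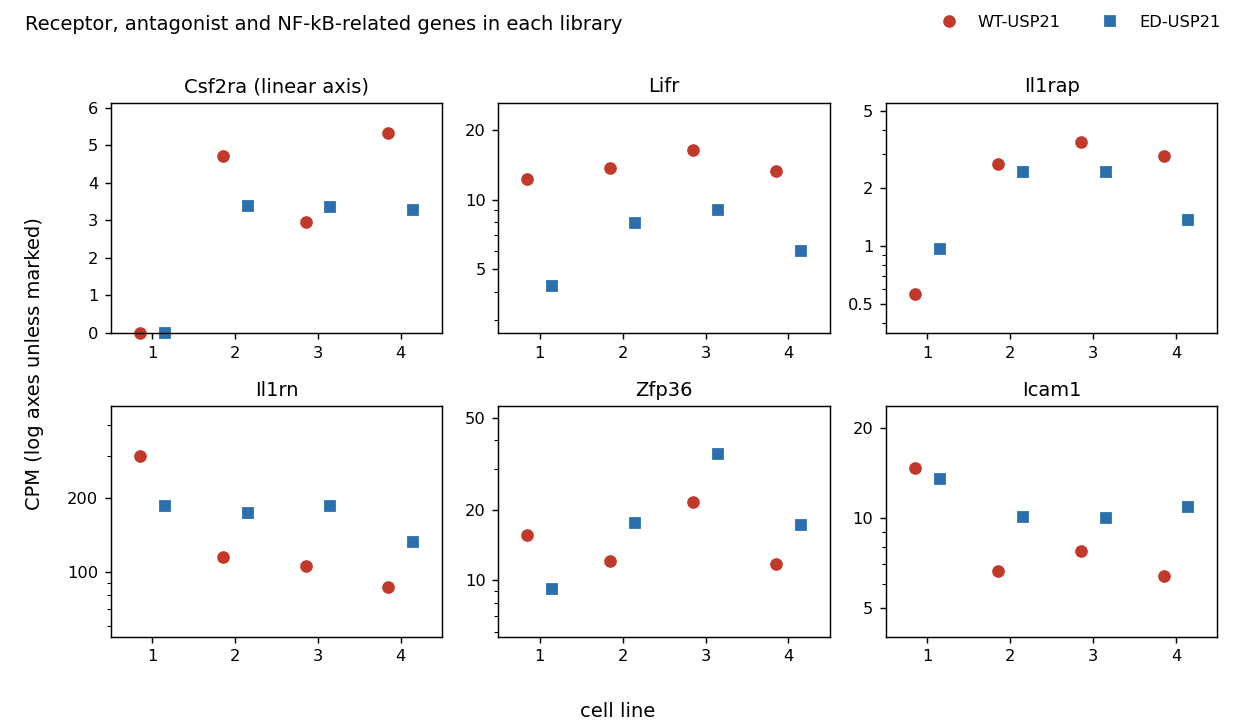
CPM of 6 partner genes in each library by cell line, WT-USP21 as red circles left of ED-USP21 as blue squares, on log axes except for Csf2ra, whose axis is linear because line 1 has 0 reads. Lifr is higher with WT-USP21 in every line, and Il1rn and Zfp36 are higher with WT-USP21 in line 1 and lower in lines 2 to 4.

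Further ligands were read from lists of 29 chemokines and 30 cytokines. In the within-line comparison edgeR called 0 of the 11 chemokines and 0 of the 15 cytokines tested, and DESeq2 called 0 of both. In each list 1 gene had an edgeR p under 0.05 before adjustment, against 8.28% of all genes. Il1rn, the natural antagonist of IL-1, had 299, 115, 106 and 86.5 CPM with WT-USP21 in lines 1 to 4, against 186, 174, 187 and 133 CPM with ED-USP21, the same division as Il1a. Over lines 2 to 4 Il1rn fell by 0.67 on the log2 scale (SE 0.07, edgeR adjusted p = 0.00890), 1 of 16 cytokines called (2.06% of all genes fell), and its construct difference was more positive in line 1 (log2 1.36, SE 0.13, adjusted p = 0.0135). The interaction called 4 of 15 cytokines, all more positive in line 1 (3.19% of all genes): Tnf, Il1rn, Il33 and Kitl. It called 2 of 11 chemokines, Cx3cl1 more positive and Ccl9 more negative (3.08% of all genes). Tnf, Kitl and Cx3cl1 were chosen after their values were seen. Tnf, whose product activates NF-κB, had 83, 60, 33 and 24 reads with WT-USP21 in lines 1 to 4, against 22, 83, 68 and 50 reads with ED-USP21 (interaction log2 3.14, SE 0.61, adjusted p = 0.0369).

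In line 1 against lines 2 to 4, edgeR called 3 of 16 chemokines higher and 2 lower, and 5 of 19 cytokines higher and 2 lower, against 31.6% of all genes called, so both shares were near the background. Il34, the other ligand of CSF1R, had 15.1 CPM with WT-USP21 and 9.91 CPM with ED-USP21 in line 1, against 2.62 to 3.52 CPM in lines 2 to 4. Like Csf1 it was higher in line 1 (log2 1.99, SE 0.19, adjusted p = 0.00107). Cxcl3, a neutrophil chemokine and close copy of Cxcl1 and Cxcl2, had in line 1 22 WT-USP21 reads and 32 ED-USP21 reads, against 156 to 707 reads in the other 6 libraries. It was lower in line 1 (log2 -3.72, SE 0.89, adjusted p = 0.0257), on the same side as Cxcl5.

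NF-κB components and response genes moved in both directions. Within the 4 lines edgeR called 0 of 20 subunits and kinases and 0 of 21 feedback and response genes, and DESeq2 called 0 of both. The edgeR p before adjustment was under 0.05 for 1 and 2 of them, against 8.28% of all genes. In lines 2 to 4, Map3k14, the kinase NIK of the alternative pathway, rose by a log2 value of 0.49 (SE 0.07, edgeR adjusted p = 0.0226) and Ikbke, an IKK-related kinase, fell by 0.47 (SE 0.06, adjusted p = 0.0171). They were the 2 of 20 subunits and kinases called there, against 4.57% of all genes, 2.51% that rose and 2.06% that fell. Among 21 response genes, 0 rose and 2 fell, namely Icam1, an adhesion molecule (log2 -0.57, SE 0.11, adjusted p = 0.0454), and Nfkbiz, an atypical IκB protein that supports transcription of inflammatory genes (log2 -0.29, SE 0.06, adjusted p = 0.0439). Line 1 against lines 2 to 4 gave 6 higher and 3 lower among 20 subunits and kinases, and 5 higher and 5 lower among 22 response genes, against 18.6% of all genes higher and 13.0% lower. Nfkb2 (log2 0.41) and Traf1 (log2 0.87) were higher in line 1, and Nfkbiz (log2 -1.08) was lower. With WT-USP21 alone, line 1 lay within the other lines for Traf1 (19.5 CPM against 17.4 to 20.1) and Nfkb2 (158 against 134 to 164). The interaction called 1 of 21 response genes, Traf1, more negative in line 1 (log2 -1.47, 3.08% of all genes). Of 20 subunits and kinases it called Map3k14 more negative (log2 -0.74) and Ikbke more positive (log2 0.66, 3.19% of all genes).

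Of 13 factors that govern the decay of cytokine transcripts, edgeR called 0 within the 4 lines and DESeq2 called 1. An edgeR p under 0.05 before adjustment was found for 1 of the 13, against 8.28% of all genes. Zfp36, which encodes tristetraprolin and speeds the decay of cytokine transcripts, was chosen after its values were seen. It had 15.6, 12, 21.6 and 11.7 CPM with WT-USP21 in lines 1 to 4, against 9.14, 17.6, 34.9 and 17.2 CPM with ED-USP21. Over lines 2 to 4 Zfp36 fell by 0.60 on the log2 scale (SE 0.07, edgeR adjusted p = 0.0113), the 1 factor of 13 called (2.06% of all genes fell), and its construct difference was more positive in line 1 (log2 1.38, SE 0.14, adjusted p = 0.0137). Zfp36l1, a close relative, was lower in line 1 than in lines 2 to 4 (log2 -1.18, SE 0.14, adjusted p = 0.00232), 1 of 3 factors of the 13 called there (31.6% of all genes). Of the 12 genes of the LIF, JAK and STAT3 pathway, edgeR called 0 within the 4 lines and DESeq2 called 1. Before adjustment 3 of the 12 had an edgeR p under 0.05, against 8.28% of all genes. In lines 2 to 4 edgeR called 1 of them, Lifr, which rose (2.51% of all genes rose).

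For each of the 10 genes the nearest patterns were sought over the 8 libraries among 12339 or 12340 genes with a mean of at least 1 CPM, by Pearson's r of log2 CPM. The libraries share 4 lines, so r mostly follows the lines. Picked as the highest of so many genes over 8 libraries, the r values are high by selection. Cxcl1 and Csf2 were near each other (r = 0.974), and Cxcl1 was nearest to Tmem39b (r = 0.985). The nearest genes were Plac8 for Il1a (r = 0.983), Gm25835 and Rnd3 for Ccl20 (r = 0.981 and 0.956) and Zfp668 for Cxcl5 (r = 0.985). For Ccl2 they were Ckap5 and Nup93 (r = 0.993 and 0.986), for Csf1 Neurl1b (r = 0.982), for Csf3 Rarg (r = 0.962), for Cxcl2 Ppp2r1b (r = 0.932) and for Lif Havcr2 (r = 0.931). The r of Ccl2 rests mainly on line 1, with 54 WT-USP21 and 420 ED-USP21 reads, against 10 to 30 reads per library in lines 2 to 4.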

How the data were processed

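The authors deposited raw read counts for each gene. The submitters' processing notes name build mm9 and HTSeq, STAR, TopHat, Cufflinks and CASAVA without versions or roles, and give no strand setting, so antisense and overlapping genes cannot be separated. The 3 rows that name no gene were left out of totals and tests. The no-feature row, 1 of these 3, held 11.4% to 20.6% of counts. From the counts, edgeR 4.0.16 in R 4.3.3 (quasi-likelihood test, TMM, default filter on low counts) gave log2 fold changes and Benjamini-Hochberg adjusted p-values over all genes tested, with a threshold of 0.05. SE is |log2 fold change| divided by √F. Log2 CPM used a prior count of 2. Counting intervals of read ratios are exact at 95%. The scripts were tested on simulated data. Alternatives were DESeq2 1.42.0, its size factors, no filter, the block, and each line left out.

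Both libraries with the same number are of 1 cell line, and this pairs them. Deviations from the group means correlated within lines 1 to 4 at 0.770, 0.503, 0.468 and 0.347. Unlike lines among 2 to 4 reached 0.242 to 0.430, so line 4 was no closer to itself than to line 2. The 10 genes and the lists were chosen with earlier results of these data known, as was the split of line 1 from the others. Named from each list were up to 4 genes with the smallest p within lines and up to 4 in line 1 against the others, and the 2 nearest genes of each of the 10. Coordinates and sequences are of GRCm38, not of mm9. A genotype entry shared by all libraries and a marker gene are not reported here.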

Additional observations from a re-analysis of the deposited data

Results flagged for a closer look

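For 4 genes the difference between WT-USP21 and ED-USP21 was not the same in line 1 as in lines 2 to 4, by the interaction test of edgeR with Benjamini-Hochberg adjustment over all genes. As log2 values, line 1 minus lines 2 to 4, these were 2.37 for Il1a, 2.03 for Ccl20, 0.97 for Cxcl5 and -1.07 for Csf1. All 4 calls were lost when line 2 was left out, with log2 values of 2.38, 2.03, 1.03 and -1.15. In 20 groups of 4 libraries, 10 genes under 2 constructs, no single library stood apart from the other 3 by Dixon's test, where chance gives about 1 in 20.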

How the results depend on the processing

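Of the log2 differences under the alternatives, 320 kept their direction and side of the threshold, 14 newly passed it, 17 no longer did and 22 changed sign. Leaving out a line in turn changed the sign of several small differences. For the lines pooled the range was -0.17 to 0.08 for Cxcl1, -0.59 to 0.04 for Cxcl2, -0.32 to 0.23 for Csf1, -0.24 to 0.86 for Csf3 and -0.05 to 0.14 for Lif. Within lines it was -0.20 to 0.06 for Cxcl1, -0.29 to 0.09 for Cxcl5, -0.16 to 0.25 for Csf1, -0.14 to 0.02 for Csf2 and -0.08 to 0.13 for Lif. For lines 2 to 4, a comparison chosen after seeing the data, it was -0.28 to 0.09 for Cxcl1, -0.44 to 0.37 for Cxcl2, -0.50 to 0.38 for Ccl2 and -0.26 to 0.44 for Csf3, which was at -0.24 with no replicate block. In line 1 against lines 2 to 4 Ccl20 ran from -0.36 to 0.34 and reached 0.90 in WT-USP21 libraries only, and Lif was at 0.07 in ED-USP21 libraries only. In the interaction Cxcl1 ran from -0.08 to 0.30. Genes called over all genes, pooled, were 60 with DESeq2, 4 with the replicate block and 0 to 383 with a line left out. Within lines they were 58 with no filter, 406 with DESeq2, 0 with no replicate block and 0 to 746 with a line left out. In the interaction they were 1666 with no filter, 1625 with DESeq2 and 0 to 2112 with a line left out. Over lines 2 to 4 they were 1380 with no filter, 1502 with DESeq2, 383 with no replicate block and 11 to 1704 with a line left out, and in line 1 against lines 2 to 4 they were 4013 to 10159. Of the 10 genes, a line left out gave 0 to 2 calls within lines, 5 to 7 in line 1 against lines 2 to 4, 0 to 5 in the interaction and 0 to 2 in lines 2 to 4, where no replicate block gave 0 and DESeq2 and no filter gave 3, and the WT-USP21 libraries alone gave 1 in line 1 against lines 2 to 4. Without the filter, the interaction also called Ccl2 (-2.62). For Usp21, leaving out a line gave log2 differences of -2.28 to -1.63, with the smallest p that 3 against 3 allows, 0.1. The causes were not tested. Under 100 reads per library, as for Cxcl2, Ccl2 and Csf3 in most lines, counting error is wide, and with 1 library per construct and line, differences within a line have no replicate check.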
